A study of Mus musculus with 8 samples.

Results

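The 30 genes described here encode enzymes of cholesterol synthesis, enzymes of fatty acid synthesis, elongation and desaturation, and proteins that regulate or carry sterols. They were chosen by name as known members of these pathways, with earlier results of these data known, and are 30 of the 18125 genes listed in the series. There are 17 sterol enzymes, from Acat2 to Dhcr7, 9 fatty acid genes, from Acly to Fads2, and 4 regulators and carriers (Srebf1, Srebf2, Insig1 and Stard4). Sterol regulatory element-binding proteins (SREBPs) are transcription factors made as membrane precursors in the endoplasmic reticulum. When sterols are scarce they travel to the Golgi, are cut free, and turn on genes of cholesterol and unsaturated fatty acid synthesis. When sterols are plentiful, INSIG proteins hold the precursor back. In macrophages this system is known to be adjusted by inflammatory cytokines and by the lipid the cells take up.

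The series holds 8 RNA sequencing libraries of mouse macrophages on the C57BL/6 background, 1 library for each group. Slc6a8-/y mice, called KO here, lack the X-linked creatine transporter, and wild-type mice are called WT. Peritoneal macrophages, collected 3 to 4 days after an injection of thioglycollate (1 ml, 4%), were KO with IFN-gamma (10 ng/mL, 12 hours), KO untreated, WT with IFN-gamma and WT untreated. Bone marrow-derived macrophages, grown with 10% M-CSF for 5 days, were KO with IL-4 (10 ng/mL, 6 hours), KO untreated, WT with IL-4 and WT untreated. The labels give neither the age of the mice nor how many animals a library holds, and libraries of 1 genotype may share an animal.

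Total expected counts ran from 10812678 to 11065427 in the peritoneal libraries and from 20553654 to 21221526 in those of bone marrow-derived cells. Slc6a8 stood at 0.18 to 1.71 FPKM in the 4 KO libraries and at 39.52 to 163.54 FPKM in the 4 WT libraries, where FPKM is fragments per kilobase of transcript, scaled to sequencing depth. All 7 macrophage markers were detected in every library, and the 5 adipocyte markers summed to at most 0.32 FPKM in any library. All 30 genes were listed in all 8 libraries, with at least 60 counts in each, and passed the filter on low counts in every fit. With no replicate, pairs of libraries were set against each other as a log2 ratio of FPKM + 1, without a test. Tests came from edgeR's quasi-likelihood fits of genotype and cytokine together, and a gene is said to have risen or fallen only where its Benjamini-Hochberg adjusted p there was under 0.05. Their p-values measure the spread between these libraries only. In bulk RNA, fewer cells of a type and less RNA per cell cannot be told apart.

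SREBPs are known to act together with the CCAAT-binding factor NF-Y. Stretches of DNA just upstream of 4 members are shown. Of these, Idi1, Cyp51 and Msmo1 were picked from the genes that fell in KO bone marrow-derived macrophages. The other gene, Hmgcs1, held the only match to a sterol regulatory element among the 23 members whose upstream DNA could be searched. Each stretch is the 180 bases before the start of the gene's RefSeq transcript on GRCm38.p6, read 5′ to 3′ in the direction of transcription. Capitals mark CCAAT on either strand (CCAAT or ATTGG) and, in Hmgcs1, the match to TCACNCCAC.
Hmgcs1, chr13:119690171-119690350, plus strand: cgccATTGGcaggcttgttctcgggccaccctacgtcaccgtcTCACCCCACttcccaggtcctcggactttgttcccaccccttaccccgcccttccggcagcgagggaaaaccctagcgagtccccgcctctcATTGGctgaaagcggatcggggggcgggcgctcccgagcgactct
Idi1, chr13:8885426-8885605, plus strand: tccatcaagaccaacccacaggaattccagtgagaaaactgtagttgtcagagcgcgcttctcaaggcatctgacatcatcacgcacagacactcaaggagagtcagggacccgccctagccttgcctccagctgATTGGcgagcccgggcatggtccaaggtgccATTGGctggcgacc
Cyp51, chr5:4104698-4104877, minus strand: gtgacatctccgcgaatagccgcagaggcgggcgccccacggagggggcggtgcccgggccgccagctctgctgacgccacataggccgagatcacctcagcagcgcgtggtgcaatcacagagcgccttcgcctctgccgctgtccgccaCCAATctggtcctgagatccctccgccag
Msmo1, chr8:64733579-64733758, minus strand: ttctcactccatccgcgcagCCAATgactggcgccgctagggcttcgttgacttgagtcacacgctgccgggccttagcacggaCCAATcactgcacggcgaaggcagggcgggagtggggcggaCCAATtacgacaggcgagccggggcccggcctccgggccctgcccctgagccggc
RefSeq windows were matched for 23 of the 30 genes, and both motifs were searched on both strands of the 250 bases before each start. Fdps, Fdft1, Sqle, Stard4, Scd1, Scd2 and Fads1 had no window and were not searched. For 8 of the 23 genes, Fasn and Hsd17b7 among them, a window overlaps the gene's own outer bounds. CCAAT was in a window of 18 of the 23 genes (78.3%). It was in 37.5% of all 27025 genes with a window and 40.7% of the 10254 tested in bone marrow-derived macrophages. By role, it was in 13 of 14 sterol enzyme genes, 3 of 3 regulators and 2 of 6 fatty acid genes (Fasn and Elovl5). TCACNCCAC was in 1 of 23 genes (4.35%), against 1.22% of all 27025 genes with a window. CCAAT was also in genes not called for genotype in bone marrow-derived macrophages, such as Mvk and Ebp. Acaca, which fell there, had none in its window. Whether the motif is related to the fall was not tested. A match describes these letters and does not show binding.

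RNA levels of the 30 genes spanned a broad range, and the order of the levels differed between the cell types. In peritoneal macrophages Fdft1, squalene synthase, was the highest member, at 65.02 FPKM with IFN-gamma and 91.31 FPKM untreated in KO cells, against 67.45 and 82.38 FPKM in WT cells. In bone marrow-derived macrophages Fdft1 stood at 8.09 FPKM with IL-4 and 8.25 FPKM untreated in KO cells, against 9.95 and 9.97 FPKM in WT cells. The highest member there was Srebf2, the gene of the SREBP that mainly drives sterol synthesis, at 61.73 to 70.85 FPKM. Elovl6, a fatty acid elongase, was the lowest member in every library but WT untreated peritoneal macrophages, where Hsd17b7 was lower, and stood at 1.49 to 1.95 FPKM in peritoneal and 1.00 to 1.35 FPKM in bone marrow-derived macrophages. Fads2, which carries out the first desaturation step of polyunsaturated fatty acid synthesis, stood at 3.65 to 4.89 FPKM in peritoneal and 14.24 to 18.13 FPKM in bone marrow-derived macrophages. These differences between cell types were not tested.

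**Figure D1:**
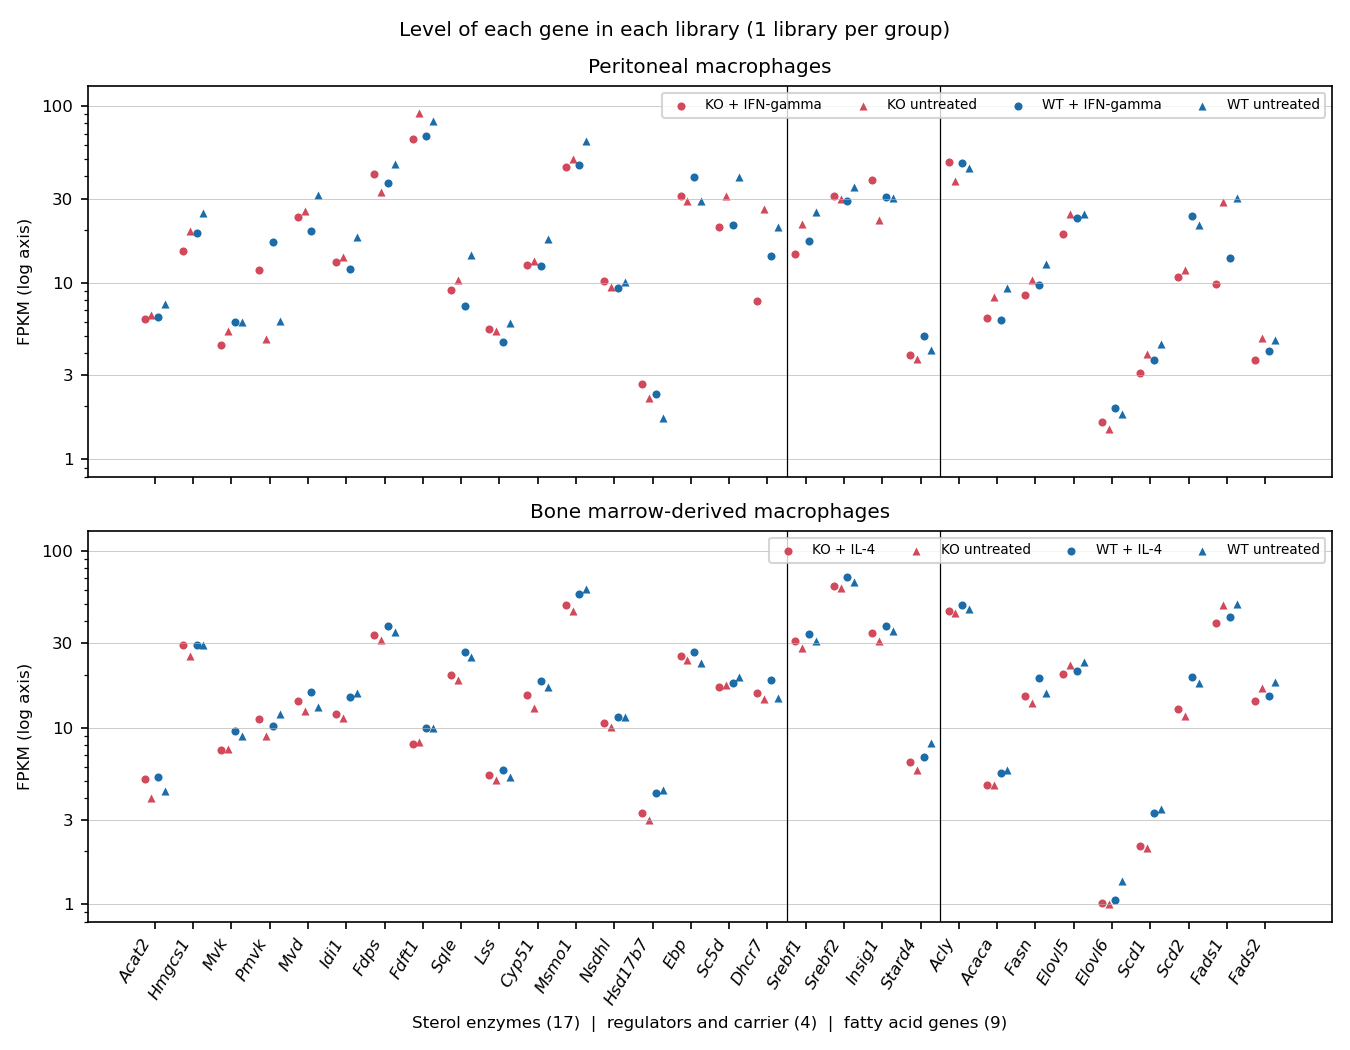
Level of each of the 30 genes in each library, in FPKM on a log axis, for peritoneal (top) and bone marrow-derived macrophages (bottom). Each point is 1 library, KO in red and WT in blue, with circles for cytokine-treated and triangles for untreated cells. Fdft1 lies at 65.02 to 91.31 FPKM in the top panel and at 8.09 to 9.97 FPKM in the bottom panel, and Scd2 lies lower in all 4 KO libraries than in any WT library.

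The first question was whether macrophages without the creatine transporter differ in these genes. In KO bone marrow-derived macrophages 10 of the 30 genes fell and 0 rose relative to WT, against a background of 3.68% of the 12879 genes tested that fell and 1.51% that rose. Of the 17 sterol enzymes 6 fell, of the 9 fatty acid genes 4 fell, and of the 4 regulators and carriers none was called, although all 4 had an unadjusted p under 0.05 in the edgeR fit, as did 10.3% of all genes tested on the lower side. All 30 estimates were below 0, as were 6437 of the 12879 over all genes tested. The median log2 change was -0.15 for sterol enzymes, -0.15 for regulators and carriers and -0.25 for fatty acid genes, with 0.00 for all genes tested. The size of the call depended on the tool: DESeq2 called 2 of the 30 genes, Scd2 and Sqle, where 0.978% of all genes fell by its test.

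Scd2 and Scd1 encode stearoyl-CoA desaturases, which introduce the double bond of monounsaturated fatty acids, and lie on chromosome 19 (Scd2 at 44293676 to 44306864, Scd1 at 44394450 to 44407709, GRCm38). In bone marrow-derived macrophages Scd2 stood at 12.76 FPKM with IL-4 and 11.68 FPKM untreated in KO cells, against 19.28 and 17.93 FPKM in WT cells. Both KO libraries were below both WT libraries, and Scd2 fell by 0.60 on the log2 scale (SE 0.05, edgeR adjusted p = 0.000159). Scd1 stood at 2.13 FPKM with IL-4 and 2.08 FPKM untreated in KO cells, against 3.28 and 3.49 FPKM in WT cells. Its KO and WT libraries did not overlap either, and it fell by 0.68 (SE 0.10, edgeR adjusted p = 0.00416). Scd1 and Scd2 are similar in sequence, so the authors' counting may have divided some reads between them. Fads1 and Fads2, the desaturases of polyunsaturated fatty acids, were not called, with log2 changes of -0.07 (SE 0.05) and -0.10 (SE 0.08).

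In peritoneal macrophages Scd2 stood at 10.82 FPKM with IFN-gamma and 11.80 FPKM untreated in KO cells, against 23.78 and 21.18 FPKM in WT cells. The KO libraries were below the WT libraries without overlap, and after IFN-gamma Scd2 was the only one of the 30 genes at least 2-fold lower, where 0.89% of all 10670 genes compared were. The log2 change over both conditions was -1.0 (SE 0.11, unadjusted p = 9.45e-05), which missed the threshold in the edgeR fit (adjusted p = 0.0813). DESeq2 called it, with an adjusted p of 0.000788, where 0.174% of all genes fell by its test, and the adjusted p over the alternatives ran from 0.000788 to 0.294. Scd1 stood at 3.10 FPKM with IFN-gamma and 3.98 FPKM untreated in KO cells, against 3.67 and 4.48 FPKM in WT cells. Its untreated KO value was above its IFN-gamma-treated WT value, so the genotypes overlapped.

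Markers of stromal cells were called for genotype in bone marrow-derived macrophages only. The summed level of 6 fibroblast and mesothelium markers was 168.4 FPKM with IL-4 and 195.7 FPKM untreated in KO bone marrow-derived macrophages, against 348.3 and 369.5 FPKM in WT. That sum came from 3 collagen genes (Col1a1, Col1a2 and Col3a1), all of which fell in KO, where 3.68% of all genes did. Msln, Upk3b and Wt1 were at 0 in all 4 libraries. In peritoneal macrophages the sum was 50.03 FPKM with IFN-gamma and 86.23 FPKM untreated in KO cells, against 74.15 and 94.47 FPKM in WT cells. In the untreated pair Wt1 (6.12 FPKM in KO, 5.53 in WT) and Msln (0.26 and 0.17) were higher in KO. The other markers of the list were lower in KO in that pair. In peritoneal macrophages 0 of the 5 tested markers were called for genotype, where 0.0332% of all genes were. All 5 estimates were below 0, where 5872 of the 12052 over all genes were, with a median log2 change of -0.34. On the lower side 4 had an unadjusted p under 0.05 in the edgeR fit (80%, where 7.08% of all genes did). The part of these markers in the lower Scd1, Scd2 and sterol enzyme levels was not tested.

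**Figure D2:**
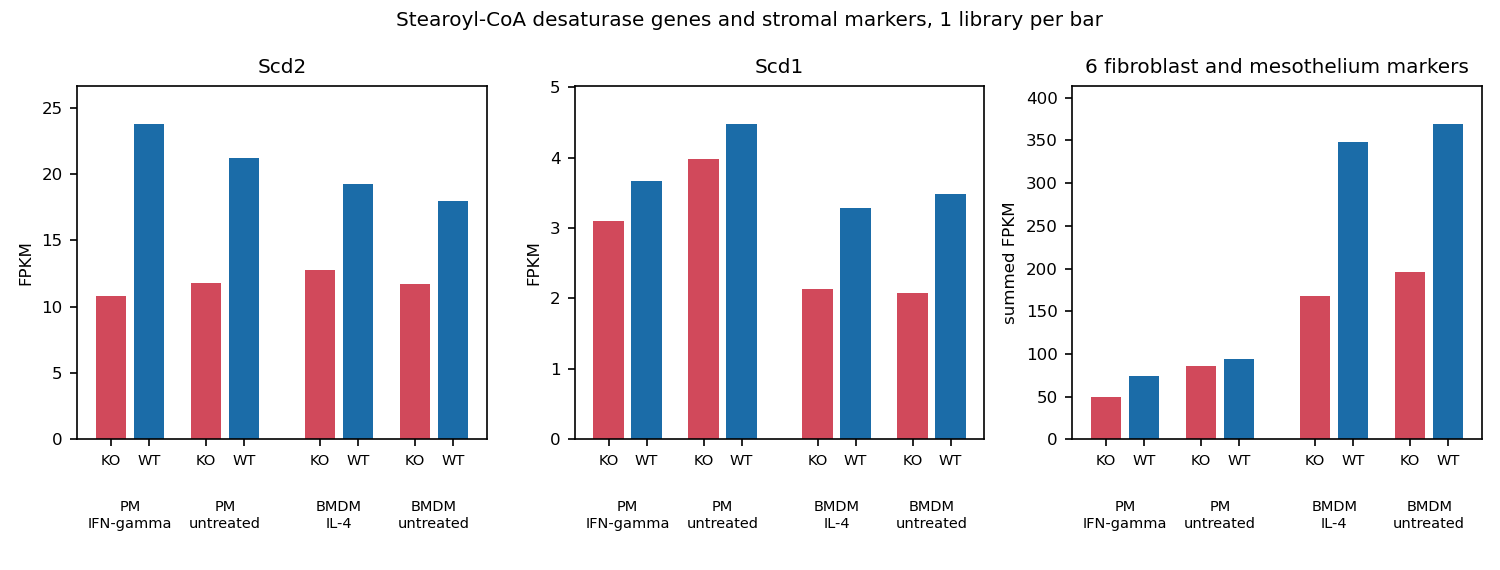
FPKM of Scd2 (left) and Scd1 (middle) and the summed FPKM of 6 fibroblast and mesothelium markers (right), each bar 1 library, with KO (red) beside WT (blue) for peritoneal (PM) and bone marrow-derived macrophages (BMDM). Scd2 stands at 10.82 to 12.76 FPKM in the 4 KO libraries and at 17.93 to 23.78 FPKM in the 4 WT libraries, and the marker sum is lower in KO in every pair.

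The sterol enzymes that fell in KO bone marrow-derived macrophages by edgeR were Sqle, Idi1, Cyp51, Msmo1, Hsd17b7 and Fdft1, of which DESeq2 called Sqle. Sqle, squalene epoxidase, a rate-controlling step of the sterol branch, stood at 19.93 FPKM with IL-4 and 18.70 FPKM untreated in KO cells, against 26.86 and 25.22 FPKM in WT cells. The groups did not overlap, and Sqle fell by 0.43 (SE 0.05, edgeR adjusted p = 0.00187). Idi1, which interconverts the isoprenoid building blocks, stood at 12.03 FPKM with IL-4 and 11.36 FPKM untreated in KO cells, against 14.90 and 15.67 FPKM in WT cells, and fell by 0.38 (SE 0.07, edgeR adjusted p = 0.00963). Cyp51, the lanosterol demethylase, stood at 15.23 FPKM with IL-4 and 12.85 FPKM untreated in KO cells, against 18.43 and 16.93 FPKM in WT cells, and fell by 0.33 (SE 0.06, edgeR adjusted p = 0.00755). For Idi1 and Cyp51 too, both KO libraries lay below both WT libraries.

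Msmo1, a methylsterol oxidase that follows Cyp51 in the pathway, stood at 49.50 FPKM with IL-4 and 46.02 FPKM untreated in KO cells, against 57.29 and 60.74 FPKM in WT cells. It fell by 0.30 (SE 0.06, edgeR adjusted p = 0.0155). Hsd17b7, a ketosteroid reductase of the same demethylation sequence, stood at 3.30 FPKM with IL-4 and 3.02 FPKM untreated in KO cells, against 4.26 and 4.45 FPKM in WT cells, and fell by 0.46 (SE 0.10, edgeR adjusted p = 0.0225). Fdft1, with the values above, fell by 0.28 (SE 0.07, edgeR adjusted p = 0.0433). For all 3 genes the KO and WT libraries did not overlap. In the fatty acid branch Fasn, fatty acid synthase, stood at 15.17 FPKM with IL-4 and 13.81 FPKM untreated in KO cells, against 19.18 and 15.73 FPKM in WT cells, and fell by 0.26 (SE 0.06, edgeR adjusted p = 0.0271). Acaca, acetyl-CoA carboxylase, which makes the malonyl-CoA that Fasn uses, stood at 4.77 FPKM with IL-4 and 4.75 FPKM untreated in KO cells, against 5.57 and 5.73 FPKM in WT cells, and fell by 0.25 (SE 0.06, edgeR adjusted p = 0.0431).

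Counted without a test, 19 of the 30 genes had both KO bone marrow-derived libraries below both WT libraries (63.3%), where 13.8% of all 10906 genes compared did. The 19 were 10 sterol enzymes, 3 regulators and carriers (Srebf2, Insig1 and Stard4) and 6 fatty acid genes. None had both KO libraries above both WT libraries, against 13.1% of all genes. The 11 sterol enzymes that were not called had log2 changes of -0.30 to -0.01, with Mvk, mevalonate kinase, the lowest and Ebp, a sterol isomerase, the highest. Between them lay Lss, lanosterol synthase, at -0.07 (SE 0.07) and Nsdhl, a sterol dehydrogenase of the demethylation sequence, at -0.15 (SE 0.08). Stard4, a carrier of cholesterol between membranes, stood at 6.37 FPKM with IL-4 and 5.74 FPKM untreated in KO cells, against 6.83 and 8.16 FPKM in WT cells, and had a log2 change of -0.30 (SE 0.11, edgeR adjusted p = 0.157).

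In peritoneal macrophages the genotype term called 0 of the 30 genes, and 0.0332% of all 12052 genes tested were called. Without adjustment 5 members had a p under 0.05 in the edgeR fit, all of them lower in KO (Hmgcs1, Pmvk, Srebf1, Fasn and Scd2), where 7.08% of all genes had such a p on the lower side and 6.86% on the higher side. Of the 30 estimates 26 were below 0, where 5872 of the 12052 over all genes were. The median log2 change was -0.18, with 0.01 for all genes. The 7 macrophage markers had a median of -0.38 in the same fit, and none was called. On the lower side 3 of these markers had an unadjusted p under 0.05 in the edgeR fit (Adgre1, Lyz2 and Fcgr1). Mertk had such a p on the higher side. In bone marrow-derived macrophages the marker median was 0.00, and none was called for genotype. The part of these markers in the values was not tested. With IFN-gamma 9 of 17 sterol enzymes had a KO to WT ratio below 1, against 53.4% of all genes compared, with a median log2 ratio of -0.02 (-0.02 over all genes). In untreated cells 14 of 17 did, against 42.2% of all genes, with a median of -0.29 (0.04 over all genes).

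For the fatty acid genes 7 of 9 ratios were below 1 in each of these peritoneal pairs, with medians of -0.17 with IFN-gamma and -0.16 untreated. Both KO libraries lay below both WT libraries for 4 of the 30 genes in peritoneal macrophages (Mvk, Stard4, Elovl6 and Scd2), 13.3% where 11.2% of all genes did. In bone marrow-derived macrophages 16 of 17 sterol enzymes had a ratio below 1 with IL-4 (46.6% of all genes) and 16 of 17 untreated (51.2% of all genes), with medians of -0.17 and -0.20. All 9 fatty acid ratios were below 1 in both of those pairs, with medians of -0.11 with IL-4 and -0.18 untreated. Scd2 had the lowest ratio of the fatty acid genes in all 4 pairs, at -1.07, -0.79, -0.56 and -0.58 in the order of peritoneal with IFN-gamma, peritoneal untreated, bone marrow-derived with IL-4 and bone marrow-derived untreated.

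**Figure D3:**
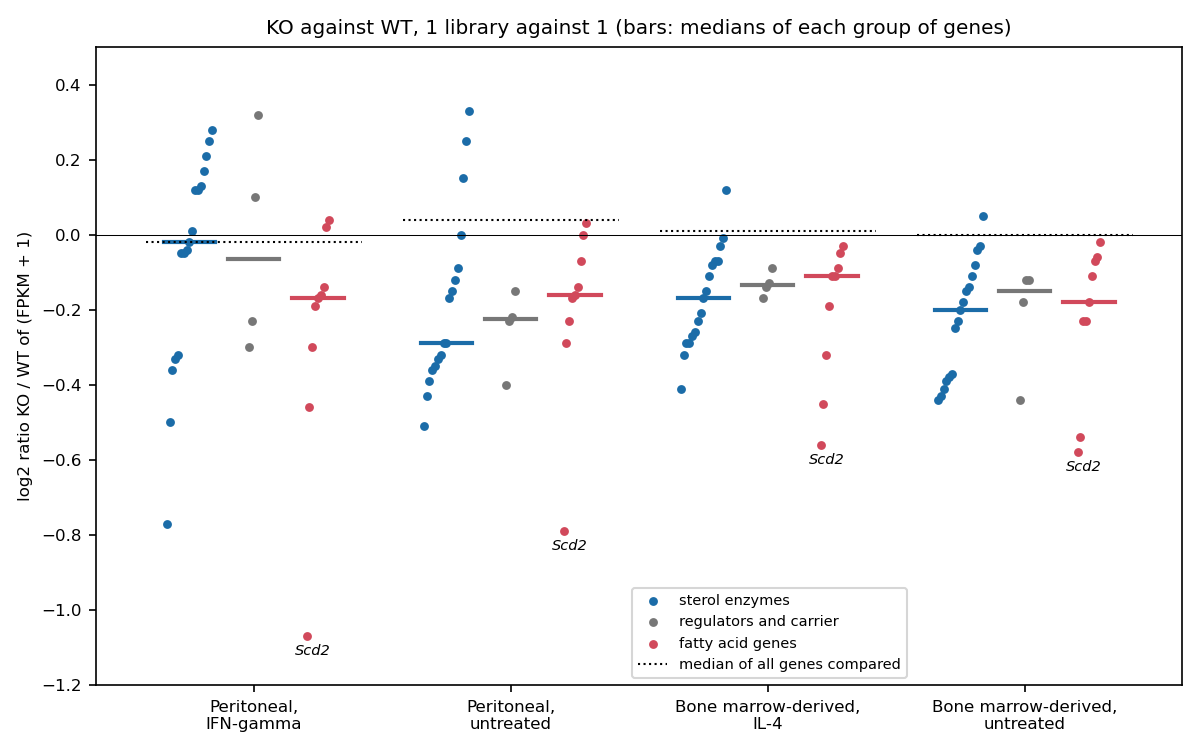
Log2 ratio of FPKM + 1, KO over WT, for each gene in 4 pairs of libraries, with sterol enzymes in blue, regulators and carriers in grey and fatty acid genes in red. Bars are group medians and dotted lines the median of all genes compared. The sterol medians lie at -0.29, -0.17 and -0.20 in 3 pairs and at -0.02 in the IFN-gamma pair, and Scd2 is the lowest red point in each pair.

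Over all 4 conditions together, 12 of the 30 genes had KO below WT in every pair (40%), where 8.13% of the 10073 genes measured in both cell types did. They were 5 sterol enzymes (Acat2, Hmgcs1, Mvk, Msmo1 and Sc5d), Srebf1, Stard4 and 5 fatty acid genes (Fasn, Elovl6, Scd1, Scd2 and Fads1). No member was above WT in every pair, against 10.3% of all genes. An edgeR fit of genotype over the 4 conditions called 0 of the 30 genes, and 0.00756% of 13224 genes, Slc6a8 alone. In that fit 11 members had an unadjusted p under 0.05, all lower in KO (36.7%, where 5.11% of all genes did on that side), and DESeq2 called 1 member, Scd2, where 0.265% of all genes fell by its test. The edgeR log2 change was -0.80 for Scd2 (SE 0.10, adjusted p = 0.099) and -0.46 for Scd1 (SE 0.11, adjusted p = 0.358). Without the IFN-gamma-treated peritoneal pair Scd2 passed the threshold in edgeR, with a log2 change of -0.69 (adjusted p = 0.0381), and without each of the other pairs it did not (adjusted p = 0.161 to 0.334).

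The difference of the genotype effect between the cell types was itself tested, as peritoneal minus bone marrow-derived. None of the 30 genes passed in edgeR, and 0.106% of all genes did. Without adjustment 3 members had a p under 0.05 on the positive side (Fdft1, Hsd17b7 and Scd1) and 1 on the negative side (Scd2), together 13.3% of the members where 15.8% of all genes had such a p. Hsd17b7 stood at 2.66 FPKM with IFN-gamma and 2.24 FPKM untreated in KO peritoneal macrophages, against 2.35 and 1.72 FPKM in WT. It was thus higher in KO peritoneal and lower in KO bone marrow-derived macrophages in every pair, and the difference was 0.72 (SE 0.16, edgeR adjusted p = 0.144). The difference was 0.46 for Scd1 (SE 0.14, edgeR adjusted p = 0.222) and -0.40 for Scd2 (SE 0.11, edgeR adjusted p = 0.189).

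The next question was how each cytokine moved the pathway. With IFN-gamma 1 of the 30 genes rose and 5 fell over both genotypes, against 17.2% of all genes that rose and 14.9% that fell (3.33% and 16.7% of the members). The median log2 change was -0.20 for sterol enzymes and -0.22 for fatty acid genes, with -0.01 for all genes. Pmvk, phosphomevalonate kinase (chromosome 3, 89454541 to 89469014), was the member that rose. It stood at 11.81 FPKM with IFN-gamma and 4.78 FPKM untreated in KO cells, and at 17.13 and 6.07 FPKM in WT cells. Both treated libraries lay above both untreated libraries, as they did for 5 of the 30 genes (16.7%) and 26.6% of all genes compared. Pmvk rose by 1.50 (SE 0.15, edgeR adjusted p = 0.00111).

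Fads1, a desaturase that acts after Fads2 in polyunsaturated fatty acid synthesis (chromosome 19, 10182877 to 10196874), stood at 9.79 FPKM with IFN-gamma and 28.78 FPKM untreated in KO cells, and at 13.80 and 30.20 FPKM in WT cells. The treated libraries were below the untreated ones in both genotypes, and Fads1 fell by 1.24 (SE 0.12, edgeR adjusted p = 0.000978). Dhcr7, which reduces dehydrocholesterol to cholesterol in the last step (chromosome 7, 143823167 to 143848410), stood at 7.87 FPKM with IFN-gamma and 26.19 FPKM untreated in KO cells, and at 14.17 and 20.59 FPKM in WT cells. It fell by 1.02 over both genotypes (SE 0.26, edgeR adjusted p = 0.0284). Its SE was the largest of the 6 called members, and its log2 ratio was -1.62 in KO and -0.51 in WT cells.

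Sc5d, the enzyme just before Dhcr7, stood at 20.75 FPKM with IFN-gamma and 31.13 FPKM untreated in KO cells, and at 21.11 and 39.85 FPKM in WT cells. It fell by 0.66 (SE 0.13, edgeR adjusted p = 0.0123). Srebf1, the gene of the SREBP that mainly drives fatty acid synthesis, stood at 14.50 FPKM with IFN-gamma and 21.43 FPKM untreated in KO cells, and at 17.22 and 25.22 FPKM in WT cells. It fell by 0.46 (SE 0.10, edgeR adjusted p = 0.0152). Acaca stood at 6.33 FPKM with IFN-gamma and 8.27 FPKM untreated in KO cells, and at 6.13 and 9.39 FPKM in WT cells, and fell by 0.40 (SE 0.12, edgeR adjusted p = 0.0436). For all 3 genes both treated libraries lay below both untreated libraries, as they did for 17 of the 30 genes (56.7%) and 40.1% of all genes compared. DESeq2 did not call Srebf1 and Acaca. Markers of cell types moved with IFN-gamma as well, where 14.9% of all genes fell and 17.2% rose. Of 5 fibroblast and mesothelium markers tested 3 fell (60%). Of 7 macrophage markers 3 fell (Cd68, Itgam and Lyz2, 42.9%) and 2 rose (Fcgr1 and Mertk, 28.6%). The T cell marker Cd3d and the dendritic cell marker Xcr1 rose. The 5 T and NK cell markers summed to 3.2 FPKM with IFN-gamma and 0.73 FPKM untreated in KO cells, and to 1.54 and 0.28 FPKM in WT cells. Nearly all of that sum was Cd3d: Cd3e stood at 0.06 FPKM or less, and Cd3g, Nkg7 and Ncr1 were at 0. The 4 dendritic cell markers summed to at most 1.36 FPKM in any peritoneal library, with Flt3 at 0.00 FPKM in all of them and Zbtb46 not called. The part of these markers in the values was not tested.

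The response to IFN-gamma was also set side by side in the genotypes, with 1 library at each point, and the difference was not tested. The median log2 ratio of IFN-gamma over untreated for the sterol enzymes was -0.08 in KO cells, where all genes had -0.11, and -0.34 in WT cells, where all genes had -0.05. Sqle stood at 9.15 FPKM with IFN-gamma and 10.38 FPKM untreated in KO cells, and at 7.37 and 14.35 FPKM in WT cells. Fdps, farnesyl diphosphate synthase, stood at 41.47 and 32.48 FPKM in KO cells, and at 36.80 and 46.75 FPKM in WT cells, so its treated library was the higher one in KO and the lower one in WT. Insig1, which retains the SREBP precursor and is itself an SREBP target, stood at 38.26 FPKM with IFN-gamma and 22.73 FPKM untreated in KO cells, and at 30.47 and 30.24 FPKM in WT cells. Subtracting the WT ratio from the KO ratio gave a median of 0.21 over the sterol enzymes and -0.06 over all genes. Of the sterol enzymes 10 of 17 were above 0, against 4215 of 10670 genes compared. Insig1 (0.72), Sqle (0.71) and Fdps (0.68) had the highest differences of the 30 genes. Of the 30 genes 14 were below 0, and Dhcr7 (-1.11) lay farthest from 0.

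With IL-4 in bone marrow-derived macrophages 6 of the 30 genes rose and 1 fell, against 12% of all genes that rose and 9.23% that fell. Over all genes 1542 rose and 1189 fell with TMM scaling, and 1385 rose and 1758 fell with library totals. The changes of the members were small: the medians were 0.13 for sterol enzymes, 0.13 for regulators and carriers and 0.01 for fatty acid genes, with -0.00 for all genes. Of the sterol enzymes 16 of 17 had an estimate above 0, where 6387 of the 12879 over all genes did. Of these 17 enzymes edgeR called 3 and DESeq2 none. Fads1 was the member that fell. It stood at 39.29 FPKM with IL-4 and 49.55 FPKM untreated in KO cells, and at 42.59 and 50.40 FPKM in WT cells, a log2 change of -0.25 (SE 0.05, edgeR adjusted p = 0.00749). It was also the 1 member that DESeq2 called, where 3.23% of all genes fell by its test.

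Fasn rose by 0.25 (SE 0.06, edgeR adjusted p = 0.0105), with 15.17 FPKM with IL-4 and 13.81 FPKM untreated in KO cells, and 19.18 and 15.73 FPKM in WT cells. Its treated library was the higher one in each genotype, while its treated KO value lay below its untreated WT value. Mvd, which makes the first isoprenoid unit, stood at 14.16 FPKM with IL-4 and 12.38 FPKM untreated in KO cells, and at 16.00 and 13.18 FPKM in WT cells, and rose by 0.28 (SE 0.08, edgeR adjusted p = 0.0379). Dhcr7 stood at 15.66 FPKM with IL-4 and 14.50 FPKM untreated in KO cells, and at 18.59 and 14.78 FPKM in WT cells, and rose by 0.26 (SE 0.07, edgeR adjusted p = 0.0267). Both treated libraries lay above both untreated libraries for Mvd and Dhcr7, as they did for 7 of the 30 genes (23.3%) and 24.6% of all genes compared. Cyp51, with the values given above, rose by 0.22 (SE 0.06, edgeR adjusted p = 0.0188). Srebf1 stood at 31.03 FPKM with IL-4 and 28.44 FPKM untreated in KO cells, and at 33.97 and 31.00 FPKM in WT cells, and rose by 0.17 (SE 0.05, edgeR adjusted p = 0.0384). Insig1 stood at 34.15 FPKM with IL-4 and 30.85 FPKM untreated in KO cells, and at 37.60 and 35.07 FPKM in WT cells, and rose by 0.16 (SE 0.05, edgeR adjusted p = 0.0491). Of the 3 collagen genes 1, Col3a1, fell with IL-4 as well (33.3%, where 9.23% of all genes fell and 12% rose). Of 7 macrophage markers 3 fell (Lyz2, Fcgr1 and Mertk, 42.9%) and 2 rose (Adgre1 and Csf1r, 28.6%). The dendritic cell marker Flt3 and the eosinophil marker Siglecf rose, in lists that summed to at most 1.09 and 1.28 FPKM in any bone marrow-derived library. Xcr1, the other dendritic cell marker tested, had a log2 change of -0.52 (SE 0.43) and was not called. The part of these markers in the values was not tested. In the KO and WT pairs taken apart, the sterol median was 0.10 in KO and 0.08 in WT cells.

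**Figure D4:**
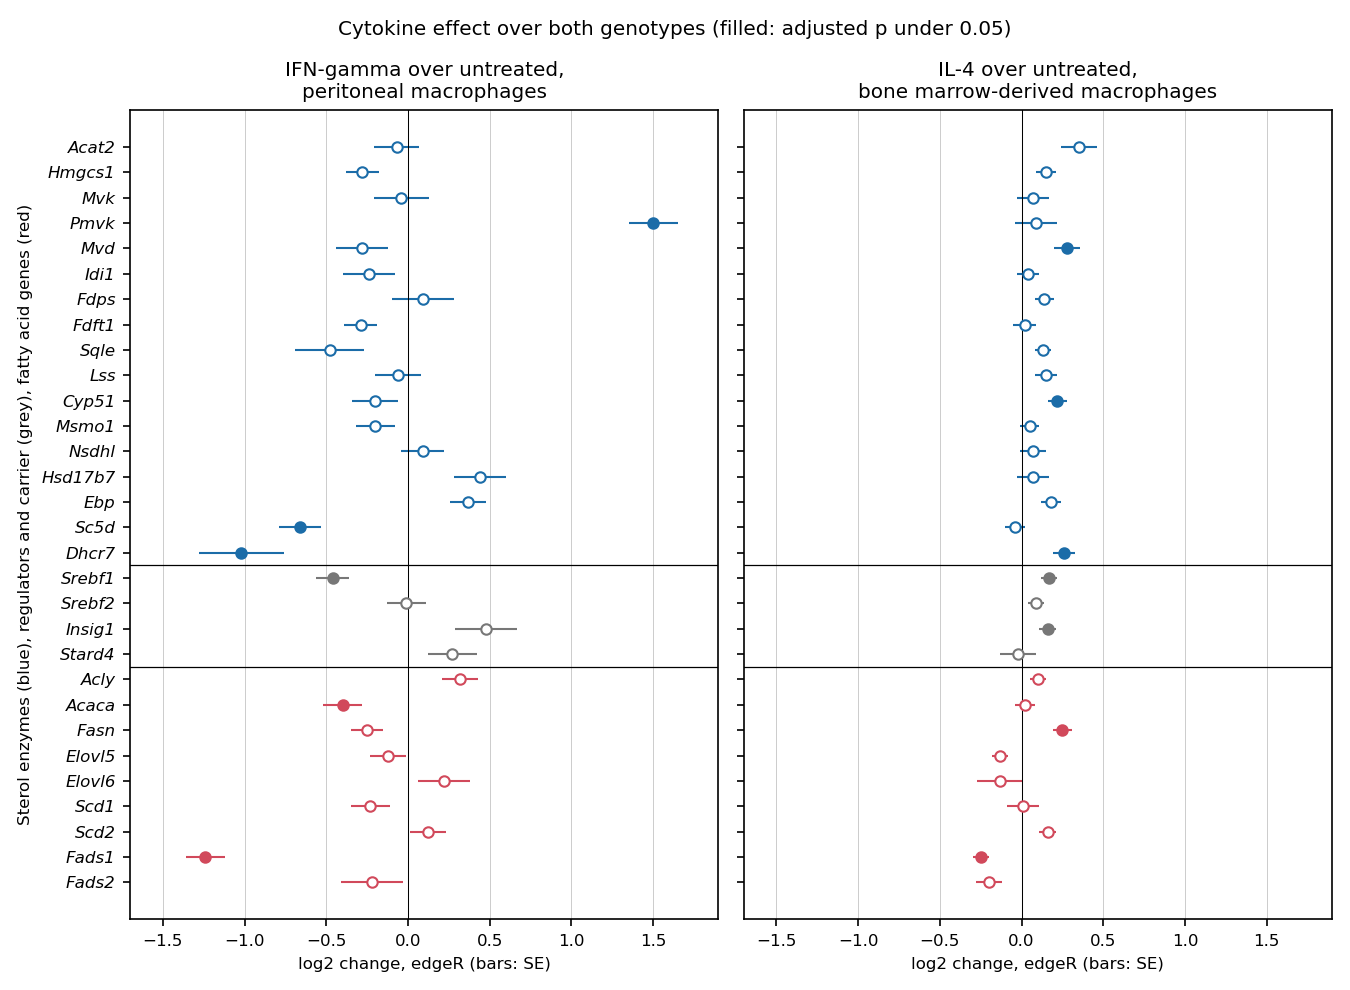
Log2 change of each gene with IFN-gamma in peritoneal macrophages (left) and with IL-4 in bone marrow-derived macrophages (right), over both genotypes, from the edgeR fits. Points are estimates, bars 1 SE, and filled points have an adjusted p under 0.05. Pmvk at 1.50 and Fads1 at -1.24 stand farthest from 0 on the left, and the called changes on the right lie between -0.25 and 0.28.

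Tested against each other, the IFN-gamma and IL-4 responses differed for 7 of the 30 genes, 1 in the positive direction (13.9% of all 13224 genes) and 6 in the negative direction (12.4% of all genes). Pmvk had a difference of 1.44 (SE 0.23, edgeR adjusted p = 0.00393). Fads1, which fell with both cytokines, had a difference of -0.97 (SE 0.14, edgeR adjusted p = 0.00247). Srebf1, which fell with IFN-gamma and rose with IL-4, had a difference of -0.61 (SE 0.10, edgeR adjusted p = 0.00409), and Dhcr7, which did the same, -1.25 (SE 0.31, edgeR adjusted p = 0.0264). Sc5d, Fasn and Hmgcs1 were the others. The cytokine, the cell type and the length of treatment differ together in this contrast and cannot be told apart.

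Other genes of the pathway were read from a list of 27. With IFN-gamma 2 of the 24 tested rose and 6 fell (8.33% and 25%, against 17.2% and 14.9% of all genes). Acsl1, a long-chain acyl-CoA synthetase, rose by 0.99 while Acsl3, another of that family, fell by 1.27. Mid1ip1, an activator of acetyl-CoA carboxylase, fell by 1.33 and Lpin1, a phosphatidate phosphatase of glycerolipid synthesis, fell by 1.02. Mbtps2, the protease that releases SREBPs from the membrane, fell by 0.43, Pcyt2 fell by 0.39 and Dbi, acyl-CoA binding protein, fell by 0.56.

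With IL-4 5 of the 25 other pathway genes tested rose and 1 fell (20% and 4%, against 12% and 9.23% of all genes). Among them Tmem97 rose by 0.36, Insig2 by 0.35, Elovl1 by 0.26 and Lpin1 by 0.83, while Mid1ip1 fell by 0.74. In KO bone marrow-derived macrophages 3 of the 25 fell (12%, against 3.68% of all genes) and none rose (against 1.51%). Among them Me1, malic enzyme, a source of NADPH, fell by 0.49. In peritoneal macrophages none of the 24 tested was called for genotype by edgeR, where 0.0332% of all genes were.

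The 10 genes of sterol sensing, storage and export formed a further list. With IFN-gamma 2 of 10 rose (20%, against 17.2% of all genes) and 2 fell (20%, against 14.9%). Ch25h, which makes an oxysterol that holds back SREBP processing, stood at 8.29 FPKM with IFN-gamma and 0.54 FPKM untreated in KO cells, and at 6.02 and 0.21 FPKM in WT cells, and rose by 4.34 (SE 0.32, edgeR adjusted p = 0.000332). Soat1, which esterifies cholesterol for storage, stood at 73.71 FPKM with IFN-gamma and 179.67 FPKM untreated in KO cells, and at 98.65 and 163.11 FPKM in WT cells, and fell by 0.91 (SE 0.14, edgeR adjusted p = 0.00453). Nr1h2, a sterol-activated nuclear receptor, rose by 0.53, and Npc1, which moves cholesterol out of lysosomes, fell by 0.49.

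With IL-4 2 of those 10 genes rose (20%, against 12% of all genes) and 3 fell (30%, against 9.23%). The cholesterol exporters moved apart: Abcg1 rose by 0.80 and Abca1 fell by 1.14. Abca1 stood at 6.29 FPKM with IL-4 and 14.54 FPKM untreated in KO cells, and at 8.43 and 18.76 FPKM in WT cells. Npc1 rose by 0.40, while Mylip, a ubiquitin ligase induced by sterol-activated nuclear receptors, fell by 0.71 and Cyp27a1, another oxysterol-forming enzyme, fell by 0.46. Between genotypes 1 of the 10 was called in bone marrow-derived macrophages (10%, where 3.68% of all genes fell). It was Abca1, which fell in KO by 0.39 (SE 0.05, edgeR adjusted p = 0.00229).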

How the data were processed

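RNA of 8 macrophage groups was sequenced, 1 library each. The authors' deposited tables give an expected count and an FPKM value per gene and library; per the submitters' processing notes, Bowtie2 2.2.5, RSEM and the mm10 build were used (for RSEM no version is named). Genes missing from a table were counted as 0 there. Expected counts were whole, within 0.005, for 70.1% to 77.8% of genes and were rounded for the fits.

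Additive fits of genotype and cytokine within a cell type (4 libraries, 1 residual degree of freedom) and fits over all 8 libraries used edgeR 4.0.16 in R 4.3.3 (quasi-likelihood, TMM scaling, filterByExpr, Benjamini-Hochberg adjustment over all genes tested). A difference between genotypes in the cytokine response enters the residual spread of the fits within a cell type. SEs were derived as |log2 change| over the root of F. The fits estimated a common biological coefficient of variation of 10.4% for peritoneal cells and 4.6% for bone marrow-derived cells. Pairs of libraries were compared by log2(FPKM + 1), which understates changes of low genes, for genes averaging at least 1 FPKM. Alternatives were RLE scaling, library totals, no filter, DESeq2 1.42.0 and limma 3.58.1 on log2 FPKM. The code of the fits was also run on simulated counts, with independent libraries and less spread than the peritoneal fit estimated. That run does not measure error rates in these data. Python 3.11.15 made summaries and figures.

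The 30 genes and all lists were chosen with earlier results of these data known. All 30 are named, with full values for those called, at least 2-fold apart in a pair, or highest or lowest of their group of genes. Symbols came from RefSeq (GRCm38.p6) for 18076 of 18125 identifiers. Promoter windows came from RefSeq on GRCm38.p6. Some genes of the wider pathway list are counted but not reported here by name.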

Additional observations from a re-analysis of the deposited data

Results flagged for a closer look

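For 7 of the 30 genes the response to IFN-gamma in peritoneal macrophages differed from the response to IL-4 in bone marrow-derived macrophages, by a test of the difference itself in edgeR over 8 libraries, where 26.3% of all genes differed. The members thus did not differ more often than genes at large. By direction, 3.33% of the members were positive and 20% negative, against 13.9% and 12.4% of all genes. Cytokine, cell type and length of treatment cannot be told apart here. On the log2 scale, IFN-gamma minus IL-4, the difference was 1.44 for Pmvk, -1.25 for Dhcr7, -0.97 for Fads1, -0.61 for Srebf1, -0.59 for Sc5d (SE 0.14), -0.48 for Fasn (SE 0.12) and -0.40 for Hmgcs1 (SE 0.11). The adjusted p-values of edgeR were 0.0231 for Sc5d, 0.0259 for Fasn and 0.0325 for Hmgcs1, and DESeq2 called neither Sc5d nor Hmgcs1. Hmgcs1 stood at 15.17 FPKM with IFN-gamma and 19.73 FPKM untreated in KO peritoneal macrophages, and at 19.22 and 24.86 FPKM in WT. In the bone marrow-derived cells Hmgcs1 had 29.36 FPKM with IL-4 and 25.44 FPKM untreated in KO, and 29.53 and 29.32 FPKM in WT cells.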

How the results depend on the processing

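No called result turned its direction under any alternative run. For single genes in a fit, 171 of the recomputed values kept their side of the threshold, 54 lost it and 19 gained it. In KO bone marrow-derived macrophages DESeq2 called 2 members, limma on log2(FPKM + 1) 2 and limma on log2(FPKM + 0.1) 3, where edgeR called 10; over all genes the calls higher and lower were 195 and 474 in edgeR, 44 and 126 in DESeq2, 63 and 182 in limma, 364 and 676 with library totals, and 527 and 726 with no filter. For IL-4 DESeq2 called 1 member and limma 2 and 3 (pseudocounts of 1 and 0.1), where edgeR called 7; over all genes DESeq2 called 672 and 416, edgeR 1542 and 1189. For genotype in peritoneal macrophages RLE scaling, no filter and DESeq2 each called 1 member, Scd2, where edgeR called 0; over all genes the calls were 3 and 1 in edgeR, 12 and 5 with RLE, 26 and 26 with no filter, 19 and 21 in DESeq2 and 0 in limma with a pseudocount of 1. Over the 4 conditions no filter and DESeq2 each called 1, Scd2, and leaving out 1 pair at a time, an alternative chosen after seeing the data, gave 0 to 1; over all genes edgeR called 0 and 1, DESeq2 16 and 35. For the difference of genotype effects edgeR called 9 and 5 genes, DESeq2 43 and 58, and neither called a member. For IFN-gamma the members called numbered 4 to 8, and over all genes DESeq2 called 1272 and 877, edgeR 2077 and 1796. The sterol median of IL-4 over untreated in WT cells was 0.08 in FPKM, 0.13 in TMM-scaled CPM and 0.12 after centring on all genes. The cause of these shifts was not tested. Library totals moved the median of all genes with IFN-gamma to -0.11, against -0.01 with TMM scaling. The fewest counts of any member in a library were 60, and with 1 library a group no value carries the variation between cultures. Replicates could not be paired because every group holds 1 library, and the number 1 that all libraries carry pairs no replicates. Matching was by condition only: the fit over 4 conditions sets KO against WT within each condition.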
